A study of Homo sapiens with 24 samples.

Results

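Glycerophospholipid synthesis and remodelling was followed through 43 genes, listed by symbol from the enzymes that build phosphatidylcholine, phosphatidylethanolamine, phosphatidylserine, phosphatidylinositol and cardiolipin and from those that exchange or remove their acyl chains and head groups. Each symbol matched 1 of the 61860 Ensembl identifiers in each count table, with TAFAZZIN and SELENOI standing for the older names TAZ and EPT1. The genes were read in 4 RNA-seq experiments with OE33, a human cell line from an adenocarcinoma of the lower esophagus, each with 3 treated and 3 control libraries, 24 in all. HFD and ND libraries came from tumors that had grown for 3 weeks under the skin of male BALB/c-nu mice on a high-fat or a normal diet. These mice, which lack a thymus, were 4 weeks old at purchase, were acclimatized for 1 week and ate the diet for 8 weeks before injection, and HFD mice were kept by a body weight above that of the ND group. OE-TRIM15 cells carried an HA-TRIM15 plasmid and EV cells an empty vector, both for 48 h. The shYY2 and shFOXRED1 cells had received plasmids for short hairpin RNAs against YY2 or FOXRED1 for 72 h, and each knockdown had a shControl group of its own. No label ties the libraries of a group to separate cultures or, for HFD and ND, to tumors of separate mice. The p-values therefore measure the spread between these libraries, which may be technical.

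The counts summed to between 14299807 and 45994561 per library. In the shFOXRED1 group replicate 3 stood apart, with a chi-square per gene of 7.94 and 6.9 against replicates 1 and 2, which were at 2.16 from each other; replicate pairs of the other groups were at 1.47 to 4.98. TRIM15, an E3 ubiquitin ligase, was at 5.41, 8.45 and 11.4 CPM (counts scaled to library size after TMM normalization within the experiment) in the OE-TRIM15 libraries and at 0 in all 3 EV libraries. The transcription factor YY2 fell with shYY2 by 1.82 on the log2 scale, and FOXRED1, an assembly factor of mitochondrial complex I, fell by 0.78 with shFOXRED1 and by 0.89 with shYY2. Both knockdowns therefore had lower FOXRED1 mRNA than their controls. All 6 epithelial markers were above 1 CPM in every experiment, with summed levels from 9980 to 14700 CPM. All 4 endothelial markers, all 4 adipocyte markers, 5 of 6 fibroblast markers and 4 of 5 leukocyte markers averaged less than 1 CPM. These markers are human genes, whereas the host cells of the tumors were mouse cells. Their low level therefore does not show how much host tissue the tumors held. The fibroblast sum was nearly all COL1A1 and moved with the groups, from 10.5 to 11.1 CPM in the shYY2 controls against 42.3 to 43.9 CPM with shYY2, from 24.2 to 25.5 against 38.4 to 41.8 CPM in the shFOXRED1 experiment, and from 30.5 to 33.5 CPM in ND against 23.6 to 27 CPM in HFD. The knockdown libraries came from OE33 cultures, where this sum does not measure fibroblasts. The part of this sum in the results below was not tested. In bulk RNA, fewer cells that express a gene and less RNA of it per cell cannot be told apart.

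Glycerophospholipids are made from phosphatidic acid along a pair of routes. In the Kennedy pathway, choline or ethanolamine is phosphorylated, activated with CTP and joined to diacylglycerol, which gives phosphatidylcholine and phosphatidylethanolamine, the most abundant lipids of most cell membranes; base exchange then makes phosphatidylserine. In the other route phosphatidic acid itself is activated to CDP-diacylglycerol, the precursor of phosphatidylinositol and of the mitochondrial lipid cardiolipin, and finished lipids are remodelled by phospholipases and acyltransferases.

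Because a factor with a DNA motif was knocked down, the promoters of the genes were searched on both strands for AAGATGGC. This is a form of the motif that YY1 and YY2 share. Only exact matches counted, and shorter or altered forms were not searched. RefSeq promoter windows (GRCh38.p14, 250 bases before to 50 after a transcription start) were held for 35 of the 43 genes. None was held for CHKA, PTDSS1, GPCPD1, LYPLA1, GDE1, PLA2G4C, TAFAZZIN or LPCAT2, so these genes were not searched. The search covered 58 windows in all. The motif stood in 3 of them (5.17%), each an alternative promoter of DGKA, DGKH or PISD, compared with 2.89% of all 35116 windows in the table. ETNK2, CHKB, PLD2, LPCAT4, PNPLA6, PLD3 and PLA2G6 changed more than SELENOI with shYY2, but their windows held no exact match and are not shown. The 3 windows with the motif are shown with it in capitals. Those of PLD1, PTPMT1 and SELENOI, which changed with shYY2 and held no exact match, are shown beside them. Part of the motif, ATGGC, does stand in the PTPMT1 window and, on the opposite strand, in that of SELENOI. The windows lie at chr12:55927066-55927365 on the plus strand (DGKA), chr13:42048398-42048697 plus (DGKH), chr22:31662166-31662465 minus (PISD), chr3:171810434-171810733 minus (PLD1), chr11:47565349-47565648 plus (PTPMT1) and chr2:26345893-26346192 plus (SELENOI), and each is written 5′ to 3′ on its gene's strand.
DGKA: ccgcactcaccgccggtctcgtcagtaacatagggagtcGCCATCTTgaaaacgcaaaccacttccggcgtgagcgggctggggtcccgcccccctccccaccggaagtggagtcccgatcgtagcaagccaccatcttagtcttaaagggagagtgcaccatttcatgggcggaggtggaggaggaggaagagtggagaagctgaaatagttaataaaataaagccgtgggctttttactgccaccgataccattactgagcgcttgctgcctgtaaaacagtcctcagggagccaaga
DGKH: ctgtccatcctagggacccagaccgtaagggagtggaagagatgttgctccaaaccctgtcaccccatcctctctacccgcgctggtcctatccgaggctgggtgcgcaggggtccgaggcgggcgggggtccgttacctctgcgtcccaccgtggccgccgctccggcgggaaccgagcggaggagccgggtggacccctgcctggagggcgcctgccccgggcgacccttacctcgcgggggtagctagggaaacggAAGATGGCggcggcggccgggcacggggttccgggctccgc
PISD: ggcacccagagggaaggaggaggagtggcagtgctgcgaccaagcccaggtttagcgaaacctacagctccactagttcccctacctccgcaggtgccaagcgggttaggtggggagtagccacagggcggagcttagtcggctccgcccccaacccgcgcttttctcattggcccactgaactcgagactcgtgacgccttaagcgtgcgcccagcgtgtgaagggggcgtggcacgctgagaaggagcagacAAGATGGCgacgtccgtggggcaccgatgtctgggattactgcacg
PLD1: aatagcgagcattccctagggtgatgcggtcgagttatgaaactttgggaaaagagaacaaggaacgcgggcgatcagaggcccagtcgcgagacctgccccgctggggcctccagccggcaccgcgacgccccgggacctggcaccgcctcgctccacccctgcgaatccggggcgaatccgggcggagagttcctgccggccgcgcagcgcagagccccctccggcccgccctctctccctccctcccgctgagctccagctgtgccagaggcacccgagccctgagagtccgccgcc
PTPMT1: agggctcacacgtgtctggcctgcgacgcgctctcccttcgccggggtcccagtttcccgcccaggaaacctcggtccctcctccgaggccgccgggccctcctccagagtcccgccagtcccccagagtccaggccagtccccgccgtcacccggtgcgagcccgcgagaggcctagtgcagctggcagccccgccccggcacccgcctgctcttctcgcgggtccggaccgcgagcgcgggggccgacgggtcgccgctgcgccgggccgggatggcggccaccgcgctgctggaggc
SELENOI: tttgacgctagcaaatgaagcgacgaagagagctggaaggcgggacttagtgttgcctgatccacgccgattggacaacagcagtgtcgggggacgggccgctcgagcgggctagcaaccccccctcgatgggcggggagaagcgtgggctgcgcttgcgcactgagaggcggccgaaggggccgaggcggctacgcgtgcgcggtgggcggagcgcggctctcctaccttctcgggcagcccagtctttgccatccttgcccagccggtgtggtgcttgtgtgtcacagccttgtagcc
The match began 9 bases after the start of DGKH, 4 bases after that of PISD and 211 bases before that of DGKA, where it lies on the opposite strand. With shYY2, DGKA and DGKH rose by 0.69 and 0.23 on the log2 scale and PISD did not pass the test (-0.10). PISD did pass as lower without shYY2 replicate 2 (-0.15, edgeR adjusted p = 0.0408) or without its control replicate 3 (-0.17, adjusted p = 0.0066).

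Of the 43 genes, 41 passed the filter on low counts and were tested in all 4 experiments. PCYT1B, the other choline-phosphate cytidylyl transferase, had 4 counts over all 24 libraries and LPCAT2, a lysophosphatidylcholine acyltransferase, had 2, both within the 3 counts per library that a count of 0 allows (0.0652 to 0.21 CPM). Compared per kilobase of exon in the control libraries, the highest level belonged to the lysophospholipase LYPLA1, at 30.6 to 51.9 CPM per kb over the 4 control groups, followed by GDE1, LYPLA2, CHKA and CDIPT. The ranges of LYPLA1 and GDE1 (28.8 to 54.5) overlapped, and so did those of all neighbours in this order of 41 genes except ETNK1 with DGKD and PLA2G6 with CHKB. At the low end were PTPMT1, PLA2G6, CHKB and PLA2G4C, the last at 0.0948 to 0.625 CPM per kb. The tables were normalized separately, so levels set across experiments also carry that difference.

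**Figure D1:**
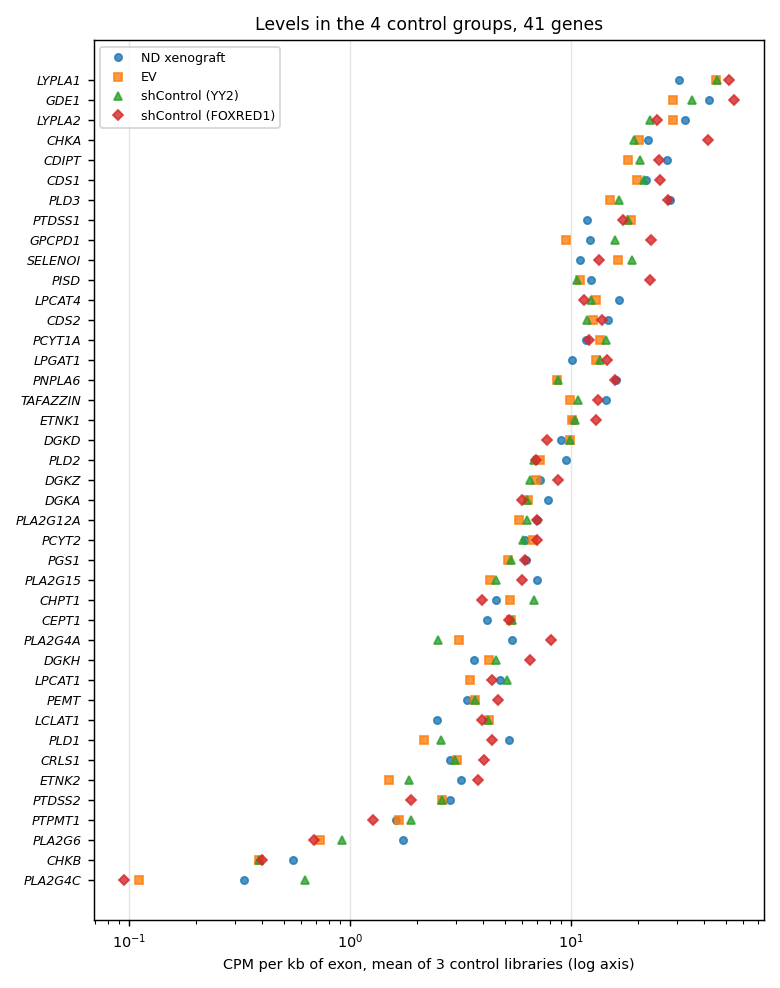
Level of the 41 tested genes in the 4 control groups, as CPM per kb of exon on a log axis, each point the mean of 3 libraries. The order runs from LYPLA1 and GDE1 at the top to PLA2G4C, between 0.0948 and 0.625 CPM per kb, at the bottom.

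The knockdown of YY2 changed most of the genes and TRIM15 overexpression the fewest (edgeR quasi-likelihood test, Benjamini-Hochberg adjusted p under 0.05 over all genes tested). With shYY2, 23 rose and 14 fell (90.2% of those tested), where 36.8% of all 16006 genes tested rose and 38.1% fell. With shFOXRED1 the counts were 9 and 13 (53.7%), against 16.8% and 19.7% of 15730 genes, and with the replicate number as a block they were 10 and 15. In the xenografts 12 rose and 14 fell with HFD (63.4%), against 25.6% and 23.9% of 17012 genes. With OE-TRIM15, 6 rose and 6 fell (29.3%), against 12.5% and 9.53% of 15745 genes. The treated and control libraries did not overlap for 87.8% of the tested members with shYY2 (76.3% of all genes), for 61% with shFOXRED1 (46.7%), for 63.4% in the xenografts (56.2%) and for 36.6% with OE-TRIM15 (37.7%). The median log2 fold change of the 41 genes was 0.21 with shYY2, 0 with shFOXRED1, -0.03 with HFD and -0.04 with OE-TRIM15, beside medians of all genes tested between -0.012 and 0.012. In total, 5 members passed in all 4 experiments (CHKA, PCYT2, SELENOI, GPCPD1 and DGKZ), 14 in 3, 13 in 2 and 9 in 1. Of all 14519 genes tested in the 4 experiments, 6.79% passed in 4, 23.5% in 3, 33.2% in 2, 27% in 1 and 9.43% in 0, so passing in several experiments was common. Some counts hung on single libraries. Without EV replicate 2, the number that rose with OE-TRIM15 was 3. The number that fell was 3 without EV replicate 2, OE-TRIM15 replicate 2 or OE-TRIM15 replicate 3, and 2 without EV replicate 3. With shFOXRED1, 5 rose without shControl replicate 2 and 4 without shControl replicate 3. Without shFOXRED1 replicate 3, the library that stood apart, 12 rose and 13 fell, all 22 calls held, and LPCAT4, CDIPT and LYPLA2 were also higher (adjusted p = 0.00588, 0.00115 and 0.0208).

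**Figure D2:**
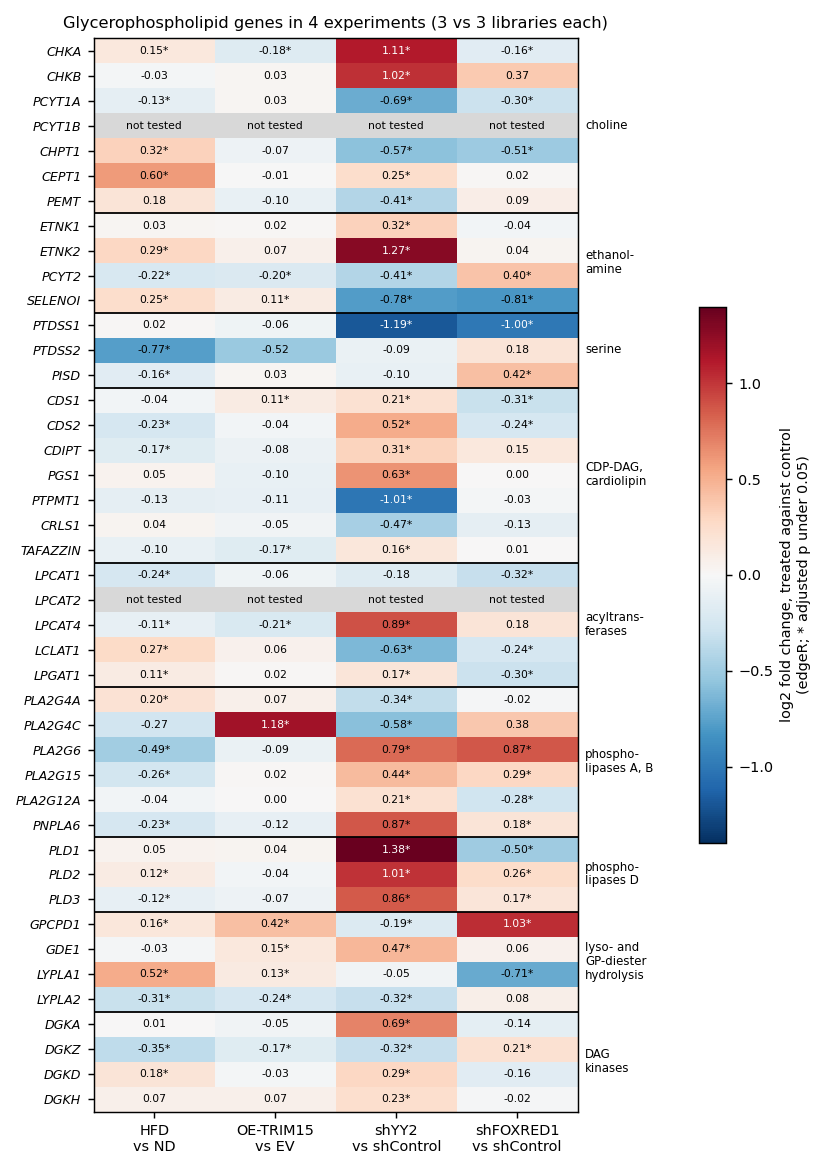
Log2 fold change (colour and number) of all 43 genes in rows grouped by branch, in the 4 experiments in columns, with a star where the edgeR adjusted p is under 0.05. The shYY2 column holds the strongest values in both directions, from -1.19 for PTDSS1 to 1.38 for PLD1, and grey cells mark the 2 genes that were not tested.

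In the serine branch, PTDSS1, the base-exchange enzyme that makes phosphatidylserine from phosphatidylcholine, showed the largest fall of all 41 tested members in both knockdowns. It stood at 52.8, 47.1 and 50 CPM in the shYY2 libraries and at 115, 116 and 112 CPM in their controls. In the shFOXRED1 libraries it was at 55.5, 57 and 49.9 CPM, against 107, 109 and 109 CPM. Every knockdown library thus lay far below every control library in both experiments. The log2 fold change was -1.19 ± 0.04 (SE, n = 3 against 3; edgeR adjusted p = 3.67e-13) with shYY2 and -1.0 ± 0.065 (edgeR adjusted p = 3.77e-09) with shFOXRED1. It did not pass the test with HFD (0.02, adjusted p = 0.654) or OE-TRIM15 (-0.06, adjusted p = 0.257). PTDSS2, the enzyme that uses phosphatidylethanolamine instead, spread widely among replicates. With HFD it was at 10.5, 10.5 and 9.87 CPM, below the ND libraries at 22.1, 17.4 and 12.4 CPM (log2 fold change -0.77 ± 0.14, edgeR adjusted p = 0.000248), and the ND values themselves reached from close to the HFD level to well above it. In the OE-TRIM15 experiment it ran from 9.74 to 13.7 CPM against 10.6, 24.9 and 12.2 CPM in EV, with overlapping groups (adjusted p = 0.152), and neither knockdown passed the test (shYY2 -0.09, shFOXRED1 0.18). PTDSS2 did pass as lower with OE-TRIM15 when low counts were not filtered (-0.53, edgeR adjusted p = 2.03e-07). With shFOXRED1 it passed as higher without control replicate 1 (0.43, adjusted p = 0.0396). PISD, the mitochondrial decarboxylase that turns phosphatidylserine into phosphatidylethanolamine, rose with shFOXRED1, from 116, 118 and 108 CPM to 154, 161 and 142 CPM (log2 fold change 0.42 ± 0.062, edgeR adjusted p = 4.79e-05), with no overlap. It was lower with HFD (-0.16 ± 0.046, adjusted p = 0.00882), a call lost without HFD replicate 3 (adjusted p = 0.0529), and did not pass with OE-TRIM15 (0.03) or shYY2 (-0.10, adjusted p = 0.143). With shYY2 it passed as lower only when shYY2 replicate 2 or control replicate 3 was left out.

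In the choline branch, the enzymes of successive steps moved in different directions within the same knockdown. CHKA, the main choline kinase of tumor cells and the entry step, was at 162, 163 and 159 CPM with shYY2 and at 75.6, 77.1 and 72.2 CPM in the controls, a 2.16-fold rise (log2 1.11 ± 0.033, edgeR adjusted p = 8.6e-14). CHKB, the other choline kinase, had far lower counts and rose as well, from 1.32, 1.18 and 1.01 CPM to 2.19, 2.34 and 2.54 CPM (1.02 ± 0.2, adjusted p = 0.000214); 72.5% of its exon bases also belong to the readthrough gene CHKB-CPT1B, so its counts are uncertain. The next 2 steps fell. PCYT1A, the rate-limiting cytidylyl transferase, went from 110, 117 and 117 CPM to 70.5, 70.8 and 72.1 CPM (-0.69 ± 0.035, edgeR adjusted p = 4.12e-11), and CHPT1, the cholinephosphotransferase of the last step, from 41.2, 38.9 and 42.4 CPM to 27.1, 28 and 27.4 CPM (-0.57 ± 0.051, adjusted p = 4.53e-08). In none of these did the shYY2 and control libraries overlap. CEPT1, which can finish both phosphatidylcholine and phosphatidylethanolamine, rose by 0.25 ± 0.043 (adjusted p = 8.7e-05).

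PCYT1A and CHPT1 fell with shFOXRED1 too, PCYT1A from 93.4, 97.8 and 96.3 CPM to 71.8, 82.3 and 79.1 CPM (-0.30 ± 0.065, edgeR adjusted p = 0.00137) and CHPT1 from 25.4, 23.7 and 21.9 CPM to 16, 18.2 and 15.9 CPM (-0.51 ± 0.1, adjusted p = 0.000752). CHKA went the other way from its rise with shYY2, from 164, 159 and 159 CPM to 148, 144 and 138 CPM (-0.16 ± 0.054, adjusted p = 0.023). The shControl libraries of the 2 knockdowns differed in CHKA themselves, 72.2 to 77.1 CPM against 159 to 164 CPM. The fall of CHKA with shFOXRED1 lost its call without shFOXRED1 replicate 2 or any 1 of the 3 control libraries (adjusted p up to 0.0954). CEPT1 (0.02) and CHKB (0.37) did not pass.

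In the xenografts both CEPT1 and CHPT1, at the end of the choline branch, were higher with HFD. The effects of HFD were not tested against those of the knockdowns. CEPT1 had the largest rise of the members with HFD, at 52.1, 53 and 54.1 CPM against 37.1, 36 and 31.7 CPM in ND (log2 fold change 0.60 ± 0.053, edgeR adjusted p = 1.02e-07), and CHPT1 was at 35.2, 35 and 33 CPM against 25.8, 27.9 and 28.5 CPM (0.32 ± 0.053, adjusted p = 9.29e-05). HFD and ND did not overlap for either. CHKA rose by 0.15 ± 0.04 (adjusted p = 0.00617), whereas PCYT1A was lower by a small amount (-0.13 ± 0.043, adjusted p = 0.0231), a call lost without HFD replicate 1 or 2 or ND replicate 1 or 3 (adjusted p up to 0.141). With OE-TRIM15 only CHKA of this branch passed the test, at 68, 67.4 and 72.3 CPM against 77.8, 80.2 and 76.8 CPM (-0.18 ± 0.041, adjusted p = 0.00664), with no overlap; PCYT1A (0.03), CHPT1 (-0.07), CEPT1 (-0.01), CHKB (0.03) and PEMT (-0.10) did not. PEMT, which methylates phosphatidylethanolamine to phosphatidylcholine and is known mainly from liver, was at 3.68 to 9.93 CPM in all 24 libraries. It passed only with shYY2 (-0.41 ± 0.15, edgeR adjusted p = 0.0237), with overlapping groups, and the call was lost without shYY2 replicate 3 or control replicate 2 and with DESeq2 (adjusted p up to 0.141). It was at 0.18 on the log2 scale with HFD and at 0.09 with shFOXRED1, neither past the test.

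**Figure D3:**
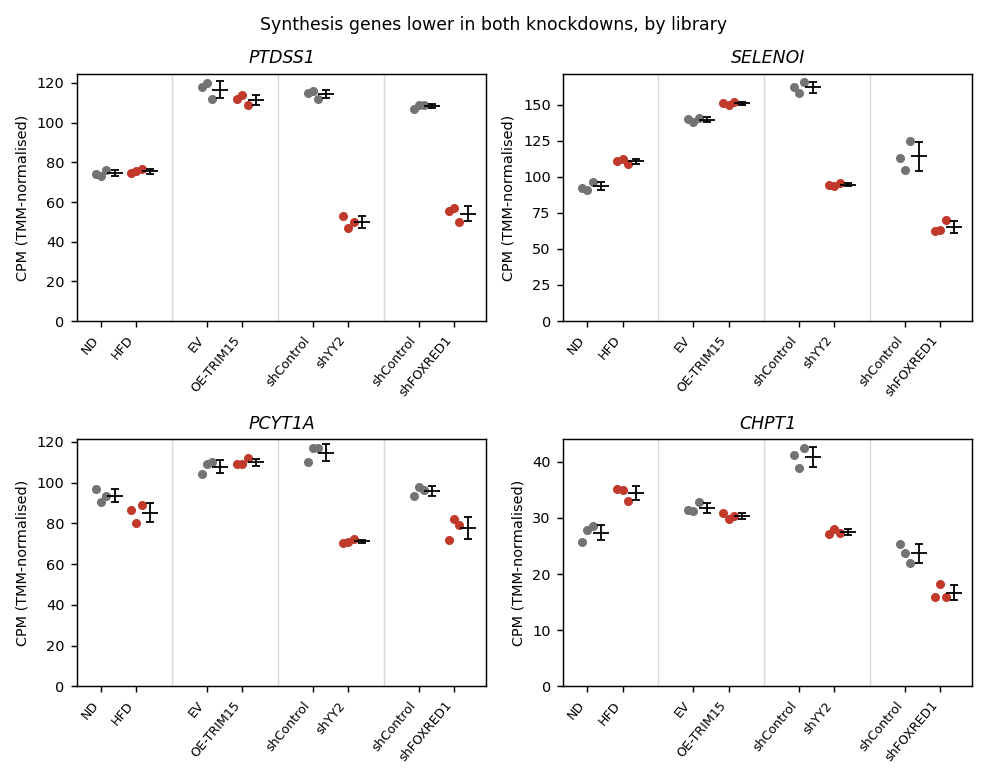
CPM of PTDSS1, SELENOI, PCYT1A and CHPT1 in every library of the 4 experiments (grey, control; red, treated), with the mean and SD of 3 libraries in black beside the points and the axis starting at 0. In both knockdowns all 3 red points lie below all 3 grey ones for each gene, for PTDSS1 at 47.1 to 57 CPM against 107 to 116 CPM.

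SELENOI, the selenoprotein that joins ethanolamine to diacylglycerol, fell in both knockdowns. With shYY2 it was at 94.6, 93.3 and 95.9 CPM against 162, 158 and 166 CPM (log2 fold change -0.78 ± 0.031, edgeR adjusted p = 2.79e-12). With shFOXRED1 it was at 62.7, 63.4 and 70 CPM against 113, 105 and 125 CPM (-0.81 ± 0.072, adjusted p = 1.46e-07). The groups lay far apart in both experiments, and the difference between the 2 effects did not pass its test (0.03 ± 0.079, adjusted p = 0.74). In the other experiments it rose, by 0.25 ± 0.037 with HFD (adjusted p = 3.86e-05) and by 0.11 ± 0.032 with OE-TRIM15 (adjusted p = 0.0199), the latter call lost without OE-TRIM15 replicate 2 or any 1 EV library (adjusted p up to 0.0972).

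Both ethanolamine kinases, which make the first step of this branch, rose with shYY2. ETNK2 was at 19.8, 20.2 and 19.9 CPM against 8.78, 8.5 and 7.51 CPM, a 2.42-fold rise with no overlap (log2 1.27 ± 0.081, edgeR adjusted p = 7.08e-10), and ETNK1 rose by 0.32 ± 0.033 (adjusted p = 1.94e-07); with shFOXRED1 they were at 0.04 and -0.04, neither past the test, and the effects of the 2 knockdowns differed for both (edgeR adjusted p = 2.23e-08 and 0.000313). ETNK2 was also higher with HFD, at 17.9, 17 and 17.4 CPM against 13.7, 15.5 and 13.2 CPM (0.29 ± 0.073, adjusted p = 0.00368), while ETNK1 (0.03 with HFD, 0.02 with OE-TRIM15) and, with OE-TRIM15, ETNK2 (0.07) did not pass. Antisense genes cover 21.8% of the ETNK2 exon bases. PCYT2, the rate-limiting ethanolamine-phosphate cytidylyl transferase, passed the test in all 4 experiments and in 2 directions. It was lower with HFD (-0.22 ± 0.052, edgeR adjusted p = 0.00256), OE-TRIM15 (-0.20 ± 0.065, adjusted p = 0.0385) and shYY2, where it went from 43, 42.8 and 39.6 CPM to 31.8, 33.1 and 29.4 CPM (-0.41 ± 0.055, adjusted p = 5.67e-06). With shFOXRED1 it rose from 49.8, 51.2 and 44.4 CPM to 68.4, 68.3 and 54.9 CPM (0.40 ± 0.086, adjusted p = 0.00143). Its OE-TRIM15 groups overlapped, and that call was lost when any of 5 libraries was left out (OE-TRIM15 replicate 2 or 3, any EV replicate; adjusted p up to 0.172). Genes on the opposite strand, ANAPC11 and NPB, cover 28.1% of its exon bases.

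All 7 genes of the CDP-diacylglycerol and cardiolipin branch passed the test with shYY2, 5 higher and 2 lower, in an experiment where 36.8% of all genes rose and 38.1% fell. The CDP-diacylglycerol synthases CDS2 and CDS1 rose by 0.52 ± 0.031 (edgeR adjusted p = 2.68e-10) and 0.21 ± 0.03 (adjusted p = 1.53e-05), CDS2 from 143, 137 and 141 CPM to 204, 203 and 197 CPM. CDIPT, the phosphatidylinositol synthase, rose by 0.31 ± 0.042 (adjusted p = 7.43e-06), and PGS1, which makes phosphatidylglycerol phosphate as the first committed step to cardiolipin, from 25.5, 29.2 and 24.5 CPM to 43.1, 39.2 and 39.7 CPM (0.63 ± 0.064, adjusted p = 2.6e-07). The 2 steps after PGS1 went down. PTPMT1, the mitochondrial phosphatase that follows it, was at 2.8, 2.88 and 2.11 CPM against 5.98, 4.49 and 5.09 CPM (-1.01 ± 0.16, edgeR adjusted p = 3.41e-05), and CRLS1, cardiolipin synthase, at 11.4, 11.3 and 11.8 CPM against 16.4, 15.8 and 15.9 CPM (-0.47 ± 0.074, adjusted p = 2.68e-05). No library of one group reached the other in any of these. PTPMT1 shares 26.3% of its exon bases with NDUFS3 on its own strand and 51.3% with genes on the opposite strand, so its counts are uncertain. TAFAZZIN, the transacylase that matures cardiolipin, rose slightly (0.16 ± 0.043, adjusted p = 0.00343).

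With shFOXRED1, only the 2 CDP-diacylglycerol synthases of this branch passed, and both fell: CDS1 from 110, 111 and 114 CPM to 87.6, 87.9 and 96.1 CPM (log2 fold change -0.31 ± 0.06, edgeR adjusted p = 0.000606) and CDS2 by 0.24 on the log2 scale (SE 0.052, adjusted p = 0.00154). CDIPT (0.15), PGS1 (0), PTPMT1 (-0.03), CRLS1 (-0.13) and TAFAZZIN (0.01) did not pass. In the xenografts CDS2 (-0.23 ± 0.035, adjusted p = 3.97e-05) and CDIPT (-0.17 ± 0.039, adjusted p = 0.00177) were lower with HFD, and CDS1 (-0.04), PGS1 (0.05), PTPMT1 (-0.13), CRLS1 (0.04) and TAFAZZIN (-0.10, adjusted p = 0.0675) did not pass. Genes on the opposite strand cover 23.9% of the CDIPT exon bases. With OE-TRIM15, TAFAZZIN was lower at 41.6, 42.6 and 40.5 CPM against 45.3, 47.7 and 47 CPM (-0.17 ± 0.045, edgeR adjusted p = 0.0157), a call lost without OE-TRIM15 replicate 3 or EV replicate 2 or 3 (adjusted p up to 0.0749). CDS1 was just past the threshold there (0.11 ± 0.039, adjusted p = 0.0497) and lost its call under 8 of 11 alternatives, among them the removal of OE-TRIM15 replicate 2 or 3 or any EV library, with adjusted p up to 0.183. CDS2 (-0.04), CDIPT (-0.08), PGS1 (-0.10), PTPMT1 (-0.11) and CRLS1 (-0.05) did not pass.

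The acyltransferases, which put a new fatty acid on a lysophospholipid, split with shYY2. LPCAT4 rose from 59.7, 56.8 and 60.6 CPM to 108, 112 and 109 CPM (log2 fold change 0.89 ± 0.036, edgeR adjusted p = 3.11e-12), while LCLAT1, which acts on lysocardiolipin and lysophosphatidylinositol, fell from 32.7, 29.9 and 32.2 CPM to 18.2, 22 and 20.9 CPM (-0.63 ± 0.069, adjusted p = 4.64e-07). LPGAT1, an acyltransferase of lysophosphatidylglycerol and lysophosphatidylethanolamine, rose by 0.17 ± 0.037 (adjusted p = 0.00063), and LPCAT1, known from lung surfactant, just missed the threshold (-0.18 ± 0.081, adjusted p = 0.0503). Neither LPCAT4 nor LCLAT1 had overlapping groups. With shFOXRED1 LPGAT1 went from 124, 125 and 133 CPM to 100, 103 and 107 CPM (-0.30 ± 0.058, edgeR adjusted p = 0.000591), opposite to its change with shYY2. LPCAT1 (-0.32 ± 0.11, adjusted p = 0.0352) and LCLAT1 (-0.24 ± 0.083, adjusted p = 0.0283) were also lower, but both calls were lost without either shFOXRED1 replicate 1 or 2 or either control replicate 1 or 2, with adjusted p up to 0.292 for LPCAT1 and 0.138 for LCLAT1. LPCAT4 did not pass there (0.18, adjusted p = 0.101), but it did with the replicate block (0.00995) and without shFOXRED1 replicate 3 (0.00588).

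All 4 tested acyltransferases passed with HFD, 2 higher and 2 lower, with small changes. In that experiment 25.6% of all genes rose and 23.9% fell. LCLAT1 was at 22.1, 22.3 and 22.5 CPM against 19.4, 17.5 and 18.9 CPM in ND (log2 fold change 0.27 ± 0.06, edgeR adjusted p = 0.00153). LPGAT1 (0.11 ± 0.038, adjusted p = 0.027) was higher, and LPCAT1 (-0.24 ± 0.081, adjusted p = 0.0217; groups overlapping) and LPCAT4 (-0.11 ± 0.043, adjusted p = 0.0407) were lower. Each of these 3 calls was lost when single libraries were left out: LPGAT1 lost it without HFD replicate 1 or 3 or ND replicate 1 (adjusted p up to 0.128), LPCAT1 without HFD replicate 1 or 3 or ND replicate 1 or 2 (up to 0.194) and LPCAT4 in 8 of 11 alternatives, among them the removal of any HFD library or of ND replicate 1 or 2 (up to 0.2). With OE-TRIM15 LPCAT4 was at 58.2, 48.8 and 53.2 CPM against 61.6, 60.5 and 63.2 CPM (-0.21 ± 0.054, edgeR adjusted p = 0.0142), lost without OE-TRIM15 replicate 2 or EV replicate 3 (up to 0.0752). LPCAT1 (-0.06), LCLAT1 (0.06) and LPGAT1 (0.02) did not pass.

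Phospholipases A and B cut acyl chains from phospholipids. PLA2G6, the calcium-independent phospholipase that acts at mitochondria and other membranes, rose in both knockdowns, from 6.2, 5.85 and 6.46 CPM to 11.1, 10.9 and 10 CPM with shYY2 (log2 fold change 0.79 ± 0.097, edgeR adjusted p = 2.23e-06) and from 5.28, 4.45 and 4.08 CPM to 10, 8.6 and 6.64 CPM with shFOXRED1 (0.87 ± 0.17, adjusted p = 0.000791). Neither pair of groups overlapped, and the difference between the effects did not pass its test (-0.09 ± 0.2, adjusted p = 0.741). With HFD it was lower, at 7.89, 8.9 and 8.43 CPM against 11.5, 12 and 11.8 CPM (-0.49 ± 0.079, adjusted p = 7.88e-05). A gene on the opposite strand covers 22.5% of its exon bases. PNPLA6, the neuropathy target esterase that breaks down phosphatidylcholine, rose with shYY2 from 63.9, 65.8 and 57.9 CPM to 115, 116 and 111 CPM (0.87 ± 0.043, adjusted p = 3.45e-11) and was lower with HFD (-0.23 ± 0.042, adjusted p = 0.000228). PLA2G15, the lysosomal phospholipase, had the same signs, 0.44 ± 0.06 with shYY2 (adjusted p = 6.44e-06), 0.29 ± 0.097 with shFOXRED1 (adjusted p = 0.0249) and -0.26 ± 0.057 with HFD (adjusted p = 0.0013).

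The other genes of this group moved less evenly. PLA2G12A, a secreted phospholipase, rose with shYY2 (0.21 ± 0.053, edgeR adjusted p = 0.00176) and fell with shFOXRED1 (-0.28 ± 0.082, adjusted p = 0.0135), the fall lost without shFOXRED1 replicate 2 or control replicate 3 (up to 0.0905). PLA2G4A, the cytosolic phospholipase that releases arachidonic acid, was lower with shYY2, at 5.72, 5.28 and 5.9 CPM against 6.92, 7.68 and 6.91 CPM (-0.34 ± 0.11, adjusted p = 0.00979), but not with DESeq2 (0.0712). It was higher with HFD (0.20 ± 0.068, adjusted p = 0.0241), a call lost with DESeq2 and without HFD replicate 2 or ND replicate 2 or 3 (up to 0.0875), and did not pass with OE-TRIM15 (0.07) or shFOXRED1 (-0.02). PLA2G4C, a cytosolic phospholipase anchored in membranes, had the largest rise of the members with OE-TRIM15, from 0.493, 0.615 and 1.09 CPM to 1.9, 1.82 and 1.39 CPM (1.18 ± 0.27, edgeR adjusted p = 0.00692). The groups did not overlap, its level was among the lowest of the members, and DESeq2 gave it no adjusted p. With shYY2 it fell by 0.58 on the log2 scale (SE 0.14, adjusted p = 0.00177), and it did not pass with HFD (-0.27) or shFOXRED1 (0.38). With shFOXRED1 PNPLA6 was also higher (0.18 ± 0.061, adjusted p = 0.0311). That call and the one of PLA2G15 depended on single libraries, with PLA2G15 lost without shFOXRED1 replicate 1 or 2 or control replicate 2 or 3 (up to 0.134) and PNPLA6 lost without any 1 of 5 libraries, all but shFOXRED1 replicate 3 (up to 0.132). With OE-TRIM15, PLA2G4C was the member of this group that passed; PLA2G6 (-0.09), PLA2G15 (0.02), PLA2G12A (0) and PNPLA6 (-0.12, adjusted p = 0.0845) did not, nor did PLA2G12A with HFD (-0.04).

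PLD1 and PLD2 turn phosphatidylcholine into phosphatidic acid and choline, while PLD3 is a lysosomal member of the family. These 3 phospholipases D, a small group, were the only one to rise in full with shYY2. In that experiment 36.8% of all genes rose. PLD1 had the largest rise of all 41 tested members, from 33.2, 33.1 and 32.9 CPM to 84.9, 92.2 and 81.7 CPM, which is 2.61-fold (log2 1.38 ± 0.049, edgeR adjusted p = 5.46e-13). PLD2 went from 34.5, 32.3 and 32.9 CPM to 65.4, 70.1 and 65.1 CPM (1.01 ± 0.046, adjusted p = 1.38e-11) and PLD3 from 87.4, 90.6 and 78.3 CPM to 157, 151 and 155 CPM (0.86 ± 0.044, adjusted p = 4.55e-11). All 9 shYY2 values stood above all values of their own controls, where 76.3% of all genes had groups that did not overlap. With shFOXRED1 PLD1 instead fell, from 59.1, 50.6 and 58.4 CPM to 37.8, 35.5 and 46.3 CPM (-0.50 ± 0.093, edgeR adjusted p = 0.000438), again with no overlap. PLD2 (0.26 ± 0.077, adjusted p = 0.0122) and PLD3 (0.17 ± 0.066, adjusted p = 0.0482) rose a little there, but PLD2 lost its call without control replicate 2 or 3 (up to 0.0673) and PLD3, whose groups overlapped, without any 1 of 5 libraries, all but shFOXRED1 replicate 3 (up to 0.205). In the other experiments PLD1 did not pass (0.05 with HFD, 0.04 with OE-TRIM15), nor did PLD2 (-0.04) and PLD3 (-0.07) with OE-TRIM15. PLD2 was higher (0.12 ± 0.047, adjusted p = 0.0439) and PLD3 lower (-0.12 ± 0.036, adjusted p = 0.0121) with HFD, the PLD2 call lost with DESeq2 and without HFD replicate 1 or 2 or ND replicate 1 or 3 (up to 0.139) and the PLD3 call without HFD replicate 2 or 3 (up to 0.0718).

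The enzymes that finish the breakdown of phospholipids included the gene with the largest rise of the members with shFOXRED1. GPCPD1, which splits glycerophosphocholine into choline and glycerol phosphate, was at 340, 331 and 391 CPM with shFOXRED1 against 169, 170 and 180 CPM, a 2.05-fold rise (log2 1.03 ± 0.062, edgeR adjusted p = 1.56e-09). With OE-TRIM15 it was at 91.8, 97.2 and 99.6 CPM against 72, 70.6 and 72.1 CPM (0.42 ± 0.04, adjusted p = 4.29e-06), and with HFD at 104, 99.4 and 104 CPM against 92.3, 89.1 and 94 CPM (0.16 ± 0.038, adjusted p = 0.00198). The groups were apart in all 3. With shYY2 it went down a little instead, from 121, 116 and 118 CPM to 104, 103 and 103 CPM (-0.19 ± 0.031, edgeR adjusted p = 3.42e-05). GDE1, a glycerophosphodiesterase, rose with OE-TRIM15 from 126, 129 and 127 CPM to 140, 145 and 140 CPM (0.15 ± 0.034, adjusted p = 0.00457) and with shYY2 by 0.47 ± 0.029 (adjusted p = 4.69e-10); it did not pass with HFD (-0.03) or shFOXRED1 (0.06). Opposite-strand genes cover 28.9% of its exon bases.

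LYPLA1 and LYPLA2, acyl-protein thioesterases with lysophospholipase activity, went apart. LYPLA1 rose with HFD, to 203, 214 and 203 CPM from 136, 154 and 140 CPM (log2 fold change 0.52 ± 0.045, edgeR adjusted p = 7.34e-08), and fell with shFOXRED1, to 139, 146 and 162 CPM from 230, 249 and 252 CPM (-0.71 ± 0.062, adjusted p = 1.3e-07). Neither comparison had overlapping groups. It was also higher with OE-TRIM15 (0.13 ± 0.033, adjusted p = 0.00998), a call lost without EV replicate 2 (0.0744), and did not pass with shYY2 (-0.05). LYPLA2 fell in 3 experiments, with OE-TRIM15 to 56.3, 53.2 and 51.3 CPM from 62.6, 61.9 and 65.5 CPM (-0.24 ± 0.046, edgeR adjusted p = 0.00191), with HFD by 0.31 on the log2 scale (SE 0.045, adjusted p = 2.84e-05) and with shYY2 by 0.32 (SE 0.05, adjusted p = 2.86e-05). With shFOXRED1 it did not pass (0.08, adjusted p = 0.501).

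**Figure D4:**
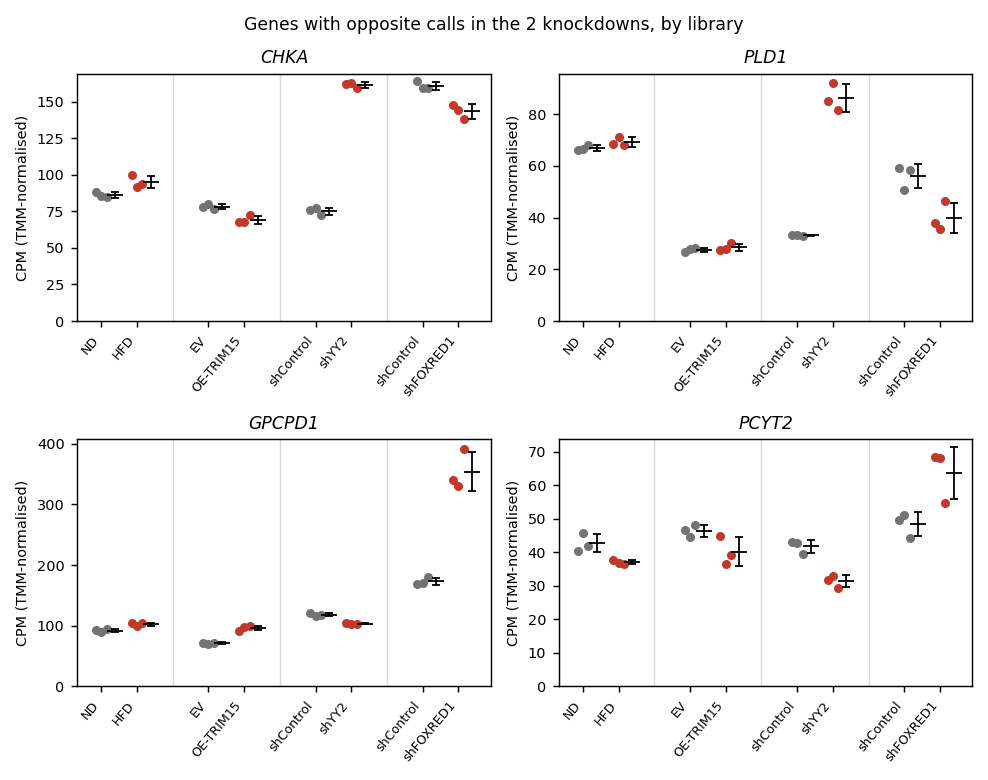
CPM of CHKA, PLD1, GPCPD1 and PCYT2 in every library of the 4 experiments (grey, control; red, treated), with the mean and SD of 3 libraries in black and the axis starting at 0. CHKA and PLD1 rise with shYY2 and fall with shFOXRED1, GPCPD1 and PCYT2 do the reverse, and CHKA in the shFOXRED1 controls (159 to 164 CPM) is near its level with shYY2.

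Diacylglycerol kinases turn diacylglycerol, the acceptor of the Kennedy pathway, back into phosphatidic acid. With shYY2 DGKA rose from 64.8, 67.4 and 61.2 CPM to 105, 103 and 104 CPM (log2 fold change 0.69 ± 0.038, edgeR adjusted p = 1.24e-10), and DGKD (0.29 ± 0.034, adjusted p = 1.32e-06) and DGKH (0.23 ± 0.036, adjusted p = 3.38e-05) rose less. DGKZ fell by 0.32 on the log2 scale (SE 0.044, adjusted p = 5.71e-06), and it was also lower with HFD, at 62.5, 58.1 and 62.5 CPM against 74.1, 79.8 and 80.2 CPM (-0.35 ± 0.044, adjusted p = 5.79e-06). None of these groups overlapped. With OE-TRIM15 the fall of DGKZ (-0.17 ± 0.05, edgeR adjusted p = 0.0256) was lost when any library but OE-TRIM15 replicate 1 was left out (up to 0.131). With shFOXRED1 DGKZ rose (0.21 ± 0.06, adjusted p = 0.00922), a call lost without control replicate 3 (0.0522). DGKA (-0.14, adjusted p = 0.0892) and DGKD (-0.16, adjusted p = 0.0844) passed there with the replicate block (0.0391 and 0.024) and under no other alternative run, and DGKH did not pass (-0.02). DGKA did not pass with HFD (0.01) or OE-TRIM15 (-0.05), nor did DGKH (0.07 in both) or, with OE-TRIM15, DGKD (-0.03), while DGKD was higher with HFD (0.18 ± 0.04, adjusted p = 0.00133).

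Whether the 2 knockdowns acted differently on a gene was tested in 1 fit of their 12 libraries, as the shYY2 effect minus the shFOXRED1 effect; the experiments had separate controls. The effects differed for 31 of 41 members, 19 more positive and 12 more negative with shYY2, against 26.4% and 28% of all 17146 genes in that fit. The widest differences were those of PLD1 (1.88 ± 0.11, edgeR adjusted p = 6.62e-12), CHKA (1.27 ± 0.061, adjusted p = 2.27e-13), ETNK2 (1.23 ± 0.12, adjusted p = 2.23e-08) and GPCPD1 (-1.23 ± 0.074, adjusted p = 9.3e-12). Each of these genes was higher in the shFOXRED1 controls than in the shYY2 controls. For ETNK2 the raw counts were 237 to 317 against 144 to 160. The part of this in the differences was not tested. Of the members, 9 passed the test in opposite directions: CHKA, CDS1, CDS2, LPGAT1, PLA2G12A and PLD1 were higher with shYY2 and lower with shFOXRED1, and PCYT2, GPCPD1 and DGKZ the reverse. That is 22% of the 41 members, against 9.21% of all 14922 genes tested in both experiments. Another 10 passed in the same direction, with PTDSS1, SELENOI, PCYT1A, CHPT1 and LCLAT1 lower and PLA2G6, PLA2G15, PNPLA6, PLD2 and PLD3 higher in both, which is 24.4% of the members against 22% of all genes. Among these, PCYT1A fell further with shYY2 (-0.39 ± 0.072, adjusted p = 9.99e-05), whereas the difference for PTDSS1 (-0.20 ± 0.076, adjusted p = 0.034) lost its call under 11 of 17 alternatives, DESeq2 and the removal of any 1 of 7 libraries among them (shYY2 replicate 2 or 3, its control replicate 1 or 2, shFOXRED1 replicate 1 or 2, or its control replicate 1; adjusted p up to 0.23).

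**Figure D5:**
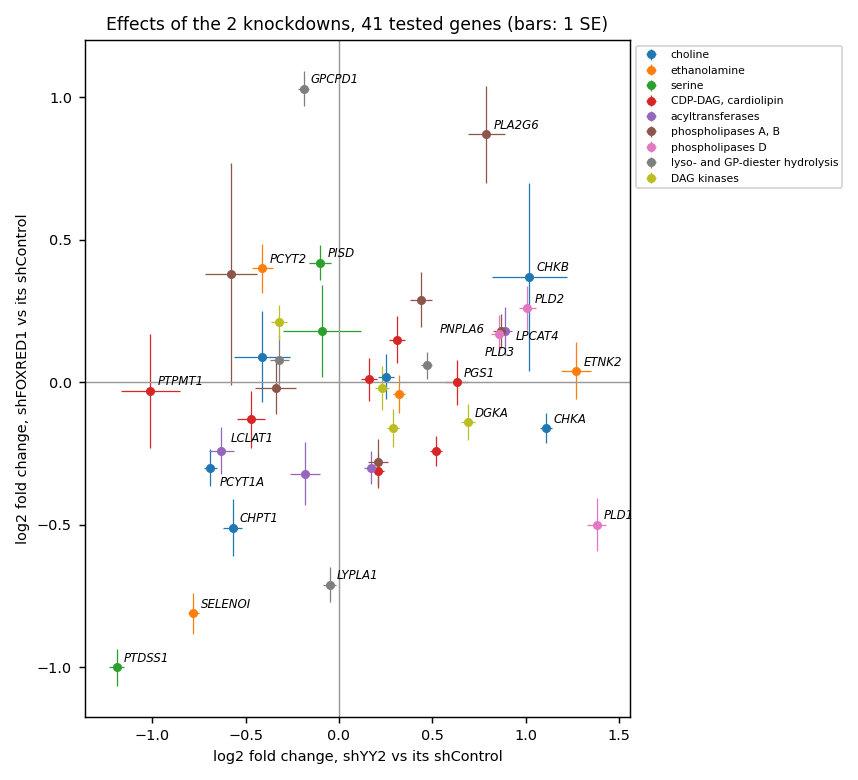
Log2 fold change with shYY2 (horizontal) against that with shFOXRED1 (vertical) for the 41 tested genes, coloured by branch, with bars of 1 SE. PTDSS1 (-1.19 and -1.0) and SELENOI (-0.78 and -0.81) lie low in both, PLA2G6 high in both, and PLD1, CHKA and GPCPD1 in the 2 quadrants of opposite sign.

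The same test for the HFD effect minus the OE-TRIM15 effect found 8 members more positive and 6 more negative, against 21.5% and 13.6% of all 17160 genes. CEPT1 (0.64 ± 0.078, edgeR adjusted p = 1.71e-06), CHPT1 (0.42 ± 0.071, adjusted p = 9.3e-05) and LYPLA1 (0.42 ± 0.058, adjusted p = 7.93e-06) were more positive with HFD, and PLA2G4C (-1.42 ± 0.33, adjusted p = 0.00223) and GPCPD1 (-0.23 ± 0.054, adjusted p = 0.00219) with OE-TRIM15. The count of 6 was 3 without HFD replicate 3. CHKA was the member with opposite calls, higher with HFD and lower with OE-TRIM15 (difference 0.35 ± 0.058, adjusted p = 6.11e-05). In both experiments SELENOI, GPCPD1 and LYPLA1 were higher and PCYT2, LPCAT4, LYPLA2 and DGKZ lower, 7 members in all (17.1%, against 9.78% of 15540 genes), while opposite calls were found for 2.44% of the members and 4.4% of all genes. TRIM15 itself was at 0.614, 0.655 and 0.63 CPM in the HFD libraries and at 0 to 0.0375 CPM in ND, below its level in any OE-TRIM15 library.

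Among 88 other genes of the pathway (supply of phosphatidic acid, choline transport, ether lipids, further acyltransferases, phospholipases and diacylglycerol kinases), 17 rose and 18 fell of 69 tested with HFD, 11 and 5 of 66 with OE-TRIM15, 31 and 23 of 67 with shYY2, and 16 and 10 of 63 with shFOXRED1. The shares that passed, 50.7%, 24.2%, 80.6% and 41.3%, lay near those of all genes (25.6% and 23.9% in the 2 directions with HFD, 12.5% and 9.53% with OE-TRIM15, 36.8% and 38.1% with shYY2, 16.8% and 19.7% with shFOXRED1). The genes named here are those with the largest changes among the ones that passed with a mean of at least 1 CPM. The strongest were again in the shYY2 libraries. PNPLA7, a lysophospholipase related to PNPLA6, went from 1.37, 1.06 and 1.41 CPM to 14.5, 13 and 13.6 CPM (log2 fold change 3.4 ± 0.13, edgeR adjusted p = 1.73e-12), and TMEM86A, a lysoplasmalogenase, rose by 2.41 ± 0.13 (adjusted p = 5.96e-11). LIPG, endothelial lipase, fell from 65.9, 65.6 and 65.7 CPM to 15.6, 17.4 and 16.9 CPM (-1.98 ± 0.05, adjusted p = 1.43e-14), and AGK, the mitochondrial acylglycerol kinase, by 1.53 on the log2 scale (SE 0.13). With shFOXRED1, TMEM86A (0.86 ± 0.18, edgeR adjusted p = 0.00144) and PNPLA7 (0.83 ± 0.13, adjusted p = 5.37e-05) were again highest, while the acyltransferase MBOAT2 (-0.58 ± 0.066) and the choline transporter-like SLC44A3 (-0.55 ± 0.076) fell most. In the xenografts PLA2G4E (1.22 ± 0.11, adjusted p = 1.32e-07) and LIPG (0.67 ± 0.061) rose and TMEM86A (-0.86 ± 0.097) and FLVCR2 (-0.79 ± 0.094) fell most. OE-TRIM15 moved PNPLA8 (0.36 ± 0.038, adjusted p = 1.12e-05) and AGPAT4 and MBOAT2 (0.25 each) upwards and PLPP2 (-0.34 ± 0.048) and FLVCR2 (-0.33 ± 0.1) downwards.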

How the data were processed

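RNA was sequenced from 24 libraries, 3 in each of 8 groups, and the deposited values were raw read counts per gene that the authors made from their reads, with the builds hg38 and mm10 named in the submitters' processing notes. The aligner, the counter, the use of strand in counting and the treatment of mouse reads in the xenografts are not given in the sources used here. Totals ran from 14299807 to 45994561 counts per library, and replicates of every group differed by more than counting noise. Columns were assigned to samples by their titles in the header. In the OE-TRIM15 and EV table the header held the 6 titles with empty cells between them, so they do not stand above their columns, and the 6 columns were taken in the order of the titles; the OE-TRIM15 and EV library numbers rest on that order. Further, the authors' own fold changes and p-values were not used.

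Each experiment was fitted alone with edgeR 4.0.16 in R 4.3.3 (TMM normalization, filterByExpr with a minimum count of 10 and a minimum total of 15, quasi-likelihood F test, 2-sided), and Benjamini-Hochberg adjustment covered every gene in the fit, calls being made under 0.05. Differences of effects were contrasts in 1 fit of 12 libraries. Each SE of a log2 fold change or difference was derived from its test, as its size divided by the square root of F. It is therefore not a measure of spread separate from the p-value. An exact test of 3 against 3 libraries cannot go below p = 0.1, so no such test was used. Levels are CPM after TMM, or CPM per kb of the union of exons in GENCODE. On simulated counts with 200 genes changed, the share of false calls by edgeR was 11% for HFD, 9.22% for OE-TRIM15 and 11.3% for shYY2. These lay above the nominal level, while shFOXRED1 was at 2.73%. The share was lower with DESeq2 in each experiment. It depends on how many genes change, and far more passed in the data, so it does not carry over to them. DESeq2 called 23 members with HFD, 10 with OE-TRIM15, 35 with shYY2 and 22 with shFOXRED1. Library values were given by rule for the 3 members with the largest change in each direction per experiment (past the threshold, mean of at least 1 CPM, groups not overlapping), a fixed set of enzymes that open or close a branch was described whatever its result, members with opposite calls were named, and of the other pathway genes the 2 largest in each direction were taken. The members and lists were chosen with earlier results of these data known.

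Whether equal replicate numbers pair the libraries is not stated in the labels. For shFOXRED1 the deviations of same-numbered libraries correlated with r = 0.214, 0.127 and 0.414 over genes of at least 10 CPM, but with r = 0.055, 0.035 and 0.157 over genes of at least 1 CPM, so values with the replicate number as a block are given beside that experiment where they change a call. In the other 3 experiments at least 1 number was at or below 0.1 at either floor. Alternatives were DESeq2 1.42.0, its size factors, 2 other filters, a fold change of at least 1.2, the block, and leaving out each library.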

Additional observations from a re-analysis of the deposited data

Results flagged for a closer look

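Effects under 2 contrasts were set against each other by the interaction test in edgeR (Benjamini-Hochberg adjusted p under 0.05), and a member was singled out where, in addition, it passed the test in both experiments in opposite directions. Between shYY2 and shFOXRED1 this held for 9 members. The difference in log2 fold change, shYY2 minus shFOXRED1, was 1.88 for PLD1, 1.27 for CHKA, 0.76 for CDS2, 0.51 for CDS1, 0.49 for PLA2G12A and 0.47 for LPGAT1, which were higher with shYY2 and lower with shFOXRED1. It was -1.23 for GPCPD1, -0.81 for PCYT2 and -0.54 for DGKZ, which were lower with shYY2 and higher with shFOXRED1. Between HFD and OE-TRIM15 it held for CHKA, with a difference of 0.35. The shFOXRED1 side of CHKA, PLA2G12A and DGKZ lost its call when single libraries were left out. The control libraries of the 2 knockdowns differed in CHKA (72.2 to 77.1 CPM against 159 to 164 CPM). By the library values given above, PLD1, GPCPD1 and PCYT2 were also higher in the shFOXRED1 controls than in the shYY2 controls. The part of these differences in the result was not tested.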

How the results depend on the processing

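No called value of a member changed sign under any alternative. Leaving aside the rule on fold size, 18 of 26 calls with HFD, 5 of 12 with OE-TRIM15, 35 of 37 with shYY2 and 13 of 22 with shFOXRED1 held under all alternatives that gave a value. Some members without a call in the main fit passed under an alternative. These included PEMT and TAFAZZIN with HFD, and PTDSS2, CDIPT, PNPLA6 and DGKH with OE-TRIM15. Among them too were PISD, LPCAT1 and LYPLA1 with shYY2, and PTDSS2 with shFOXRED1. When a fold change of at least 1.2 was also asked for, 5 members rose and 4 fell with HFD, 2 rose and 0 fell with OE-TRIM15, and 4 were more positive and 2 more negative for HFD minus OE-TRIM15; most changes in these 2 experiments were smaller than that. Without a filter on low counts, 3 were more negative for HFD minus OE-TRIM15. Leaving out 1 library at a time gave 10 to 12 members higher and 10 to 13 lower with HFD, 3 to 7 and 2 to 8 with OE-TRIM15, 23 to 23 and 13 to 17 with shYY2, 4 to 12 and 9 to 13 with shFOXRED1, 17 to 19 more positive and 8 to 13 more negative for shYY2 minus shFOXRED1, and 7 to 10 and 3 to 6 for HFD minus OE-TRIM15. The cause was not tested.

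With the replicate number as a block, the counts were 12 higher and 13 lower with HFD (LPCAT4 lost, adjusted p = 0.0516), 6 and 6 with OE-TRIM15, 23 and 15 with shYY2 (LPCAT1 gained, adjusted p = 0.00684) and 10 and 15 with shFOXRED1. DESeq2 gave PLA2G4C no adjusted p with OE-TRIM15. The depth gives PCYT1B and LPCAT2 no test, and counts of genes that share exon bases with a neighbour may hold reads of that neighbour. On the same strand this concerns CHKB and PTPMT1 most. It also concerns PLA2G12A (15.7% of its exon bases) and PNPLA6 (10.8%). The 3 libraries of a group may not be separate cultures or, for HFD and ND, tumors of separate mice.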
